A study of Mus musculus with 8 samples.

Results

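Genes of MHC class II antigen presentation were followed across 4 states of mouse hepatic stellate cells, the retinoid-storing pericytes of the liver sinusoid. The set was chosen by gene symbol and holds 8 genes: H2-Aa and H2-Ab1, the alpha and beta chains of the class II molecule I-A, H2-Eb1, the beta chain of I-E, H2-DMa and H2-DMb1, the chains of the DM peptide exchanger, Cd74, the invariant chain, Ciita, the class II transactivator, and Cd86, a costimulatory ligand. Of these, 5 were found among the 14162 genes of the deposited table: H2-Aa, H2-Ab1, H2-DMa, H2-DMb1 and Cd86. H2-Eb1, Cd74 and Ciita were not analysed here. All 5 genes found passed the filter on low values described below.

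Each state had 2 libraries, lettered a and b. The cell status was quiescent, activated, activated_miR15a or activated_miRcontrol; the last 2 are called miR-15a and control microRNA libraries here. The labels do not state how cells were activated, how either microRNA was introduced, the age of the animals, or whether the 2 libraries of a state are separate animals or cultures. The p-values therefore rest on the spread between libraries, and that spread may be technical. C57BL/6J and SCID mice are named with no strain for any library. SCID mice lack mature B and T cells, and C57BL/6 mice make no I-E molecule because their H2-Ea gene is defective. The values are whole-number scores on a scale that all libraries share, not raw counts, so the depth behind them is unknown and no counting interval is given.

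As background, class II molecules carry peptides from endocytosed proteins to CD4 T cells. The alpha and beta chains assemble in the endoplasmic reticulum with the invariant chain, which guides them to endosomes, where cathepsins trim it and DM exchanges its last fragment for an antigen peptide. The genes of the chains, DM and the invariant chain share a promoter module of X and Y boxes, bound by the RFX, CREB and NF-Y factors, on which Ciita is recruited, and interferon gamma induces Ciita through the kinases JAK1 and JAK2. In the liver the main class II cells are dendritic cells, B cells, Kupffer cells and sinusoidal endothelial cells, and presentation by stellate cells has also been described.

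The promoter sequence is shown because 4 of the 5 genes belong to this shared module. The RefSeq promoter table (GRCm38.p6, the assembly behind mm10) held H2-Aa, H2-DMa and H2-DMb1. H2-DMa has 2 RefSeq starts there: the window before one held neither motif searched, and that before the other held ATTGG at 198 to 194 bases and no TGACGTCA. These are not shown. The 250 bases before the RefSeq start of H2-Aa lie at chr17:34287824-34288073 on the minus strand. Capitals mark TGACGTCA, the CREB-binding motif of an X2 box, at 74 to 67 bases before the start, and ATTGG, the core of a Y box (CCAAT on the other strand), at 48 to 44 bases before it. For H2-DMb1 a stretch of 30 bases at chr17:34153110-34153139 on the plus strand is given, with ATTGG in capitals at 61 to 57 bases before its RefSeq start. Its 250 bases held no TGACGTCA, and the stretch lies inside the GENCODE gene, which starts upstream of the RefSeq start, at 34153072.
H2-Aa: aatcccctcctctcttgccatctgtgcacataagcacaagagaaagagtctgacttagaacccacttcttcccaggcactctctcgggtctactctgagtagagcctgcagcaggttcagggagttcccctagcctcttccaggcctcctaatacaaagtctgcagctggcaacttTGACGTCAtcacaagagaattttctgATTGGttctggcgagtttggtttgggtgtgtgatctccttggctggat
H2-DMb1: ctaggctgattcactcagtgATTGGtctga
Searched on both strands over 32851 RefSeq promoters of the same 250 bases, ATTGG occurred in 33.8% and TGACGTCA in 1.55%. A match describes the letters and is not a measured binding site.

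The mature 5′ arm of miR-15a is shown next because the series asks which genes it may target. The labels do not name the arm. Capitals mark the seed, bases 2 to 8, which miR-15b and miR-16 share.
mmu-miR-15a-5p: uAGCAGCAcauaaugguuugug
mmu-miR-15b-5p: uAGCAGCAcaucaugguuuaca
mmu-miR-16-5p: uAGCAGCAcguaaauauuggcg
Neither TGCTGCT, the match to this seed, nor the shorter GCTGCT occurred in the longest annotated 3′ UTR of any of the 5 genes (GENCODE M21), which ran from 291 bases in H2-DMb1 to 1862 bases in H2-DMa. These letters were sought in those windows only.

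The class II chains were high in the quiescent libraries, almost absent from the activated and control microRNA libraries, and present at a low level with miR-15a. H2-Aa (ENSMUSG00000036594.15, chr17:34282744-34287823, minus strand) had scores of 3812 and 3994 in quiescent cells (3903 ± 129, mean ± SD, n = 2), 0 and 2 in activated cells, 85 and 91 with miR-15a (88 ± 4.24), and 5 and 1 with the control microRNA (3 ± 2.83). Both miR-15a libraries lay above all 4 libraries of activated cells without miR-15a and far below the quiescent pair. H2-Ab1 (ENSMUSG00000073421.6, chr17:34257689-34269419, plus strand) had scores of 3604 and 3814 in quiescent cells (3709 ± 148), 16 and 20 in activated cells (18 ± 2.83), 133 and 106 with miR-15a (119.5 ± 19.1), and 6 and 12 with the control microRNA (9 ± 4.24). The order of the groups was the same except that the activated pair lay above the control microRNA pair, with no overlap.

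The DM chains were also highest in quiescent cells, with other orders among the remaining groups. H2-DMa (ENSMUSG00000037649.10, chr17:34119541-34139101, plus strand) had scores of 504 and 400 in quiescent cells (452 ± 73.5), 71 and 60 in activated cells (65.5 ± 7.78), 81 and 70 with miR-15a (75.5 ± 7.78), and 44 and 24 with the control microRNA (34 ± 14.1). The activated and miR-15a libraries overlapped, and the control microRNA pair lay below both. H2-DMb1 (ENSMUSG00000079547.4, chr17:34153072-34160230, plus strand) had scores of 216 and 220 in quiescent cells (218 ± 2.83), 1 and 0 in activated cells, 16 and 23 with miR-15a (19.5 ± 4.95), and 21 and 14 with the control microRNA (17.5 ± 4.95). Here the miR-15a and control microRNA libraries overlapped, and the activated pair stood below both. H2-DMb1 has a near-identical neighbour, H2-DMb2, which was not analysed here, so reads could be split between them. Of the exonic bases of H2-DMa, 360 (10.4%) overlap Brd2 on the opposite strand, and whether strand was used in counting is not given in the sources used here.

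Cd86 (ENSMUSG00000022901.13, chr16:36603869-36666081, minus strand), the ligand of CD28 and CTLA-4 and the one gene of the 5 outside the class II region, had scores of 632 and 676 in quiescent cells (654 ± 31.1). It had 31 and 71 in activated cells (51 ± 28.3), 158 and 145 with miR-15a (151.5 ± 9.19), and 52 and 16 with the control microRNA (34 ± 25.5). The activated and control microRNA libraries overlapped, and both miR-15a libraries lay above them.

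**Figure D1:**
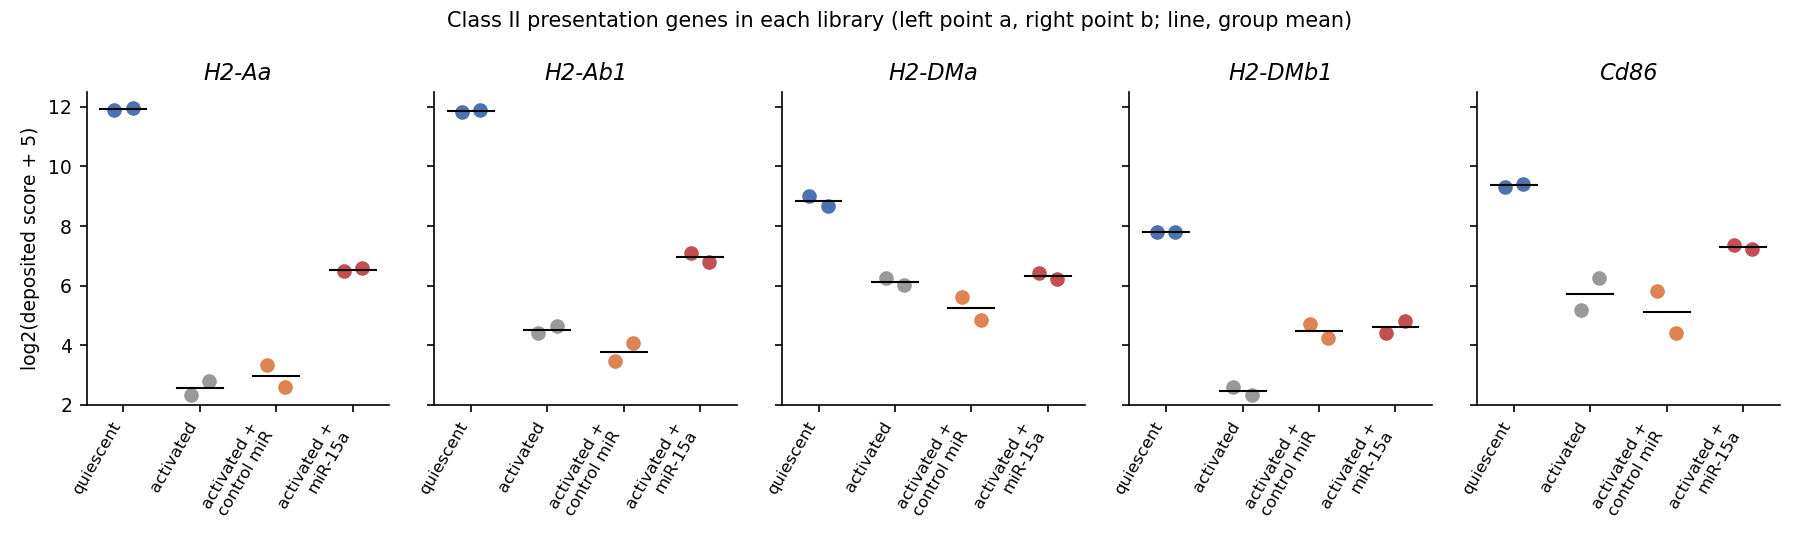
Scores of the 5 genes in each of the 8 libraries, on a log2(score + 5) axis, with a panel per gene, a point per library and a line at the mean of each group. The quiescent libraries are highest for every gene, and the miR-15a pair lies above the activated and control microRNA pairs for H2-Aa, H2-Ab1 and Cd86.

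Differences were tested with limma on log2(score + 5), in a single fit of 4 group means over the 13150 genes with a score of at least 10 in at least 2 libraries. A gene was called at a Benjamini-Hochberg adjusted p under 0.05 over all of them. On this scale a change of a gene with scores near 0 is understated and depends on the pseudocount of 5.

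All 5 genes were lower in activated than in quiescent cells, a comparison in which 34.1% of tested genes were called lower and 45.4% higher. The log2 difference of H2-Aa was -9.37 (SE 0.26, adjusted p = 4.6e-08, limma). H2-Ab1 fell by 7.34 (SE 0.22, adjusted p = 6.4e-08) and H2-DMb1 fell by 5.35 (SE 0.23, adjusted p = 3.8e-07). The smallest decreases were those of Cd86, by 3.65 (SE 0.48, adjusted p = 2.3e-04), and H2-DMa, by 2.69 (SE 0.25, adjusted p = 3.2e-05). With scores of 0 to 2 in the activated libraries, the sizes for H2-Aa and H2-DMb1 rest on the pseudocount: with 1 in place of 5 they were -11.14 and -7.27, and with 20 they were -7.55 and -3.54. In these bulk libraries fewer cells that carry a transcript and less of it per cell cannot be told apart.

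With miR-15a all 5 genes were also lower than in quiescent cells, beside 34.4% of tested genes called lower and 37.1% higher. The log2 differences were -5.39 for H2-Aa (adjusted p = 1.2e-06, limma), -4.91 for H2-Ab1, -3.20 for H2-DMb1, -2.50 for H2-DMa and -2.07 for Cd86 (adjusted p = 0.0054). With the control microRNA all 5 were lower as well, beside 33.0% of tested genes called lower and 40.7% higher. There the log2 differences were -8.98 for H2-Aa (adjusted p = 6.2e-08), -8.08 for H2-Ab1, -3.59 for H2-DMa, -3.33 for H2-DMb1 and -4.25 for Cd86 (adjusted p = 1.0e-04).

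Between miR-15a and the control microRNA, 4 of the 5 genes were higher with miR-15a, and of all tested genes 14.4% were called higher and 15.4% lower. The log2 difference of H2-Aa was 3.58 (SE 0.26, 95% interval 2.97 to 4.20, adjusted p = 8.5e-05, limma) and that of H2-Ab1 3.18 (SE 0.22, adjusted p = 6.8e-05). Both I-A chains kept an adjusted p under 0.05 with any single library left out. Cd86 was higher by 2.18 (SE 0.48, interval 1.05 to 3.30, adjusted p = 0.014) and H2-DMa by 1.09 (SE 0.25, interval 0.50 to 1.69, adjusted p = 0.017). With scores of 5 and 1 in the control libraries, the size for H2-Aa again rests on the pseudocount, and was 4.68 with 1 and 2.24 with 20. For H2-DMb1 the difference was 0.13 (SE 0.23, interval -0.41 to 0.66, adjusted p = 0.72), so a difference of up to 0.66 in favour of miR-15a is inside its interval.

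The calls for Cd86 and H2-DMa were lost in smaller fits. Without miR-15a library a or b the differences kept their size, at 2.12 and 2.24 for Cd86 (adjusted p = 0.071 and 0.064) and 0.99 and 1.19 for H2-DMa (adjusted p = 0.088 and 0.058). Without control microRNA library b, the lower of that pair for both genes, the differences were 1.46 for Cd86 (adjusted p = 0.051) and 0.71 for H2-DMa (adjusted p = 0.058). With only the miR-15a and control microRNA libraries in the fit the differences were the same, with adjusted p = 0.063 and 0.079, and then only the I-A chains were called.

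Against the activated cells, 4 of the 5 genes were higher with miR-15a, beside 16.8% of tested genes called higher and 21.6% lower. H2-Aa was higher by 3.97 (SE 0.26, adjusted p = 3.7e-05, limma), H2-Ab1 by 2.43 (SE 0.22, adjusted p = 1.9e-04), H2-DMb1 by 2.15 (SE 0.23, adjusted p = 4.3e-04) and Cd86 by 1.58 (SE 0.48, adjusted p = 0.036). H2-DMa differed by 0.19 (SE 0.25, interval -0.40 to 0.79, adjusted p = 0.58). The call for Cd86 was lost without activated library a (1.04, adjusted p = 0.19), where the difference was smaller. It was also lost at a like size without miR-15a library a (1.52, adjusted p = 0.13) or b (1.64, adjusted p = 0.12) and without either quiescent library (1.58, adjusted p = 0.066 each).

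Between the control microRNA and the activated cells, 1 of the 5 genes was called higher, beside 7.18% of tested genes, and none lower, beside 6.61%. This was H2-DMb1, by 2.02 (SE 0.23, interval 1.48 to 2.56, adjusted p = 0.0028, limma), or 3.68 with a pseudocount of 1 and 0.87 with 20. H2-Aa differed by 0.39 (interval -0.23 to 1.01, adjusted p = 0.35) and Cd86 by -0.60 (interval -1.72 to 0.53, adjusted p = 0.43). H2-Ab1 differed by -0.74 (interval -1.27 to -0.22, adjusted p = 0.064) and H2-DMa by -0.90 (interval -1.49 to -0.30, adjusted p = 0.055). Without control microRNA library b H2-Ab1 was called lower (-1.06, adjusted p = 0.032), and without library a H2-DMa was called lower (-1.28, adjusted p = 0.015). The last 3 comparisons share libraries in pairs, so the values of each are side by side and no overlap between them is counted.

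**Figure D2:**
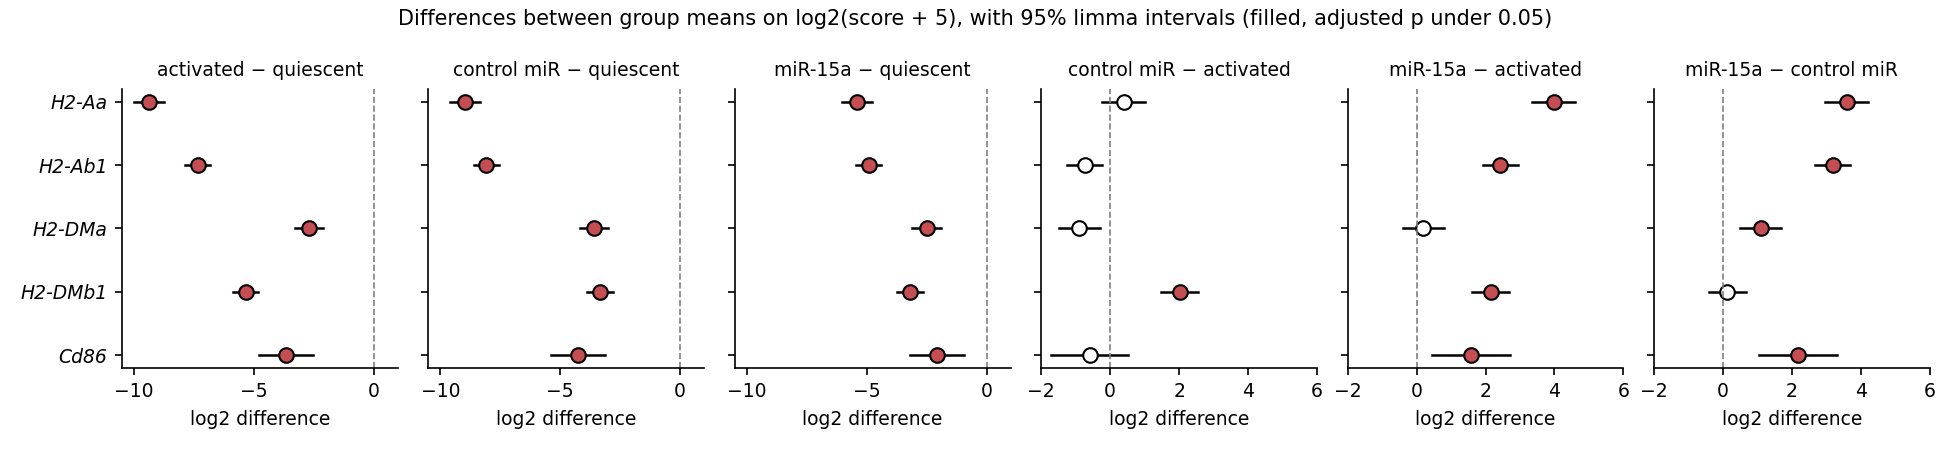
Differences between group means on the log2(score + 5) scale for the 5 genes, with a panel per comparison, bars for the 95% limma interval and filled points for an adjusted p under 0.05. H2-DMb1 is the open point in the panel of miR-15a minus control microRNA, and the only filled point in the panel of control microRNA minus activated cells.

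The I-A chains had the largest decreases of the 5 genes in each of the 3 comparisons with quiescent cells. Across the 8 libraries, each gene centred on its own mean log2 level, the profiles of H2-Aa and H2-Ab1 differed by a root mean square of 0.83, and those of H2-DMa and Cd86 by 0.67, while H2-Aa and H2-DMa were farthest apart at 2.56. The log2 difference between H2-Aa and H2-Ab1 within a library was 0.08 and 0.07 in quiescent cells and -0.62 and -0.21 with miR-15a. It was -2.07 and -1.84 in activated cells and -0.14 and -1.50 with the control microRNA, where H2-Aa stood at 5 or less. Per kilobase of all annotated exons the quiescent means were 1444 for H2-Ab1, 1028 for H2-Aa, 178.6 for Cd86, 131.1 for H2-DMa and 129.7 for H2-DMb1. With the length of the longest coding transcript in place of all exons H2-Aa came first, at 3460 against 3060 for H2-Ab1, so the order of these 2 depends on the gene model. How the scores were normalized is not known, so whether they grow with transcript length is not known either.

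Set against its own quiescent mean, the 5 genes stood at different levels with miR-15a. The miR-15a mean was 2.25% of the quiescent mean for H2-Aa, 3.22% for H2-Ab1, 8.94% for H2-DMb1, 16.7% for H2-DMa and 23.2% for Cd86. The activated mean was 0.0256%, 0.485%, 0.229%, 14.5% and 7.80% of it for the same genes, and the control microRNA mean 0.0769%, 0.243%, 8.03%, 7.52% and 5.20%. H2-Aa, H2-Ab1 and H2-DMb1 were read against the 167 genes that had a quiescent mean of at least 200 and an activated mean under 1% of it. They are themselves among the 167, and H2-DMa and Cd86 did not meet the cut. The cut used the quiescent and activated values, so the fall on activation was a condition of entry and not a result. With miR-15a the 167 genes stood at a median of 8.4% of their quiescent mean, with quartiles of 4.36% and 12.6%. Of the 167, 19 (11.4%) stood lower than H2-Aa, 27 (16.2%) lower than H2-Ab1 and 93 (55.7%) lower than H2-DMb1. With the control microRNA their median was 0.581%, and 161 of them (96.4%) stood lower than H2-DMb1. The quiescent mean of H2-DMb1 was 218, near the cut of 200. Its percent thus moves more per unit of score than that of a gene with a higher quiescent mean. These shares are descriptions of 2 libraries a group and carry no test.

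The labelled cell type was checked against marker lists. Beside the counts on all marker lists, 45.4% of all tested genes were called higher on activation and 34.1% lower. Between miR-15a and the control microRNA these shares were 14.4% and 15.4%. All 11 markers of activated stellate cells were in the table, and their summed scores were 3577 and 3926 in quiescent cells and between 362818 and 532487 in the other 6 libraries. These sums are bounded by the table's maximum of 125636, at which Acta2, Col1a2 and Lox stood in both activated libraries. Col3a1 stood at 58193 in both, against 1182 and 1472 in quiescent cells. Of the 11 markers 10 rose on activation, and Des, which encodes desmin, fell (131 and 120 against 56 and 48), a call lost without quiescent library a or activated library b (adjusted p = 0.067 each, limma). Of 16 markers of quiescent stellate cells 12 were in the table, without Lrat, Gfap, Lhx2 and Colec10. On activation 8 of the 12 fell, among them Reln (-8.50), Ecm1 (-2.33) and the lipid droplet coat gene Plin2 (-2.32), and 4 rose, among them the receptor gene Pdgfrb (4.36). Des and Pdgfrb are on both stellate lists, so their changes are counted in each. The quiescent libraries also held transcripts of other liver cells. The summed macrophage and endothelial scores, like that of the class II genes, were highest in quiescent cells and next highest with miR-15a. This order did not hold for each class II gene. H2-DMa overlapped between miR-15a and activated libraries, and H2-DMb1 between miR-15a and control microRNA libraries. Summed over the 22 macrophage markers in the table of 24 listed, the score was 146245 and 167687 in quiescent cells, 2328 and 2125 in activated cells, 14344 and 15693 with miR-15a, and 2904 and 2652 with the control microRNA. The summed score of the 5 class II genes was 8768 and 9104, then 119 and 153, 473 and 435, and 128 and 67 in the same order. Over the 16 endothelial markers it was 256155 and 187118, 924 and 716, 10554 and 10421, and 1381 and 1683. Over the 12 quiescent stellate markers it was 17545 and 18503, 9287 and 9649, 7213 and 7480, and 7806 and 8875. The quiescent pair lay below the macrophage and endothelial sums there. Between miR-15a and the control microRNA, 4 of these 12 were called higher, 3 lower and 5 not called. With miR-15a they stood at a median of 32.8% of their quiescent means (0.612% to 1309%), and 3 of the 12 stood lower than H2-Aa. The lists hold different genes, so these sums do not measure the share of a cell type. The part of macrophages and endothelial cells in the class II results was not tested.

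Of the 22 macrophage markers 21 were lower in activated than in quiescent cells and 21 were higher with miR-15a than with the control microRNA. Marco, a Kupffer cell scavenger receptor, had scores of 10504 and 11352 in quiescent cells, 1 and 0 in activated cells, 1124 and 1353 with miR-15a and 1 and 4 with the control microRNA. Its scores, like those of Cd5l, a secreted Kupffer cell protein (42360 and 58200, 18 and 2, 1977 and 2361, 21 and 23), had the same order of groups as H2-Aa. C1qa and C1qc, which encode chains of complement C1q, differed between the microRNAs by 2.61 and 2.52, and Csf1r, the receptor for colony-stimulating factor, by 1.46. Cx3cr1, a chemokine receptor, was the exception and was higher in activated cells. With miR-15a the macrophage markers stood at a median of 12.1% of their quiescent means (2.34% to 315%), and none of the 22 stood lower than H2-Aa and 1 lower than H2-Ab1. Of the endothelial markers all 16 were lower on activation and 15 were higher with miR-15a than with the control microRNA. Among them the scavenger receptor genes Stab1 and Stab2 were higher by 3.69 and 3.24, the adhesion gene Pecam1 by 6.28 and the phosphatase gene Ptprb by 0.87. Their median was 11.1% (0.392% to 47.1%), with 2 of 16 lower than H2-Aa and 3 lower than H2-Ab1. Flt1 was the endothelial marker that was lower with miR-15a than with the control microRNA. It had scores of 1858 and 1896 in quiescent cells, 92 and 89 in activated cells, 211 and 222 with miR-15a, and 425 and 444 with the control microRNA.

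Professional antigen-presenting cells were represented by few markers. Of 12 dendritic cell markers 7 were in the table. Clec9a, a receptor of cross-presenting dendritic cells, had scores of 126 and 109 in quiescent cells, 1 and 1 in activated cells, 22 and 14 with miR-15a and 1 and 0 with the control microRNA. Irf8, a transcription factor of dendritic cells that B cells and macrophages also express, had 2022 and 2062, 8 and 12, 204 and 196, and 10 and 7. Xcr1, a chemokine receptor of the same cells as Clec9a, had 70 and 59, 74 and 88, 60 and 50, and 85 and 84. It was not called on activation (0.31, adjusted p = 0.11, limma), and it was lower with miR-15a than with the control microRNA (-0.58, adjusted p = 0.031), a call lost without miR-15a library b (-0.46, adjusted p = 0.14), control microRNA library a (adjusted p = 0.092) or b (adjusted p = 0.10). Zbtb46, a transcription factor of classical dendritic cells, had 201 and 170, 76 and 88, 53 and 78, and 63 and 72, and between the microRNAs it differed by -0.06 (adjusted p = 0.84). Of the 6 tested, 5 were lower on activation, and with miR-15a 3 were higher and 1 lower than with the control microRNA (2 to 4 higher with 1 library left out). The summed dendritic score was 2593 and 2575 in quiescent cells, 172 and 201 in activated cells, 359 and 370 with miR-15a, and 167 and 173 with the control microRNA. Without Irf8, left out after its values were seen, the other 6 markers summed to 155 and 174 with miR-15a and 157 and 166 with the control microRNA, which overlap. Xcr1 and Zbtb46, which were not higher with miR-15a, held most of this sum. Among the 6, Clec9a was higher with miR-15a. So was Itgax, picked after its values were seen, at 16 and 16 against 5 and 8 (0.88, adjusted p = 0.011, limma). Of 12 B cell markers, Bank1, Cd22 and Fcer2a were in the table. Cd22, an inhibitory receptor of B cells, had 103 and 108, 1 and 4, 26 and 24, and 1 and 4 in the same order. Bank1 had 102 and 88, 14 and 14, 30 and 26, and 0 and 16. Between the microRNAs Bank1 differed by 1.68 and was not called (adjusted p = 0.059, limma). Fcer2a had no score above 6 and was not tested. Of the 2 tested, both were lower on activation, and 1, Cd22, was higher with miR-15a than with the control microRNA. Of 12 T and NK cell markers only Cd3g was in the table, with no score above 7.

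**Figure D3:**
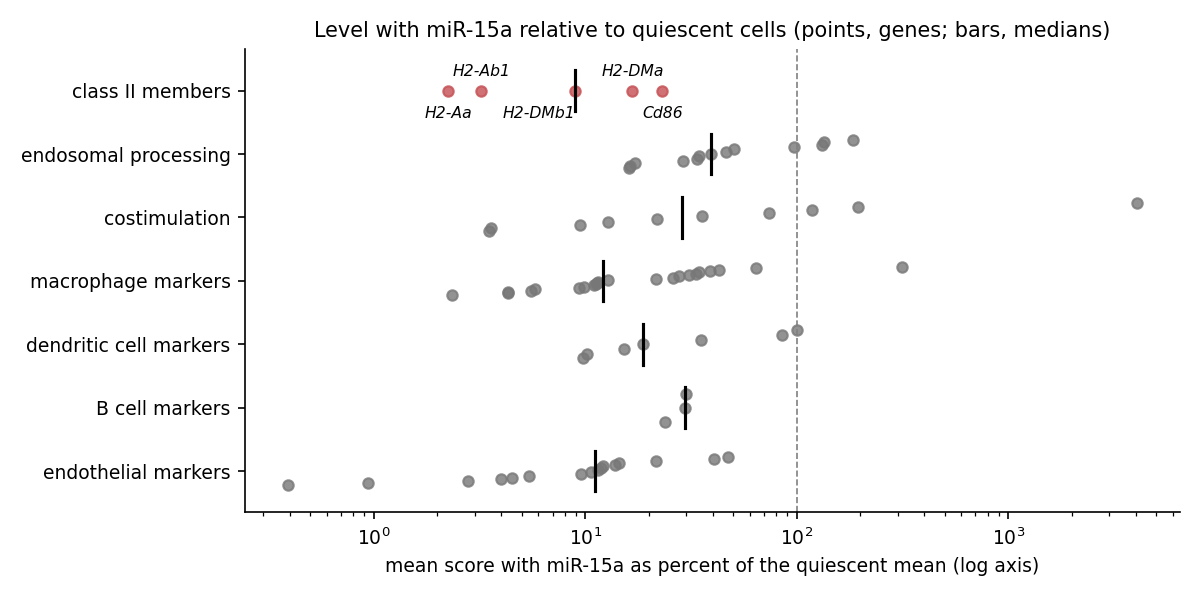
Mean score with miR-15a as a percent of the quiescent mean, on a log axis, with a point per gene and a bar at the median of each list shown. The stellate cell lists are not among those shown. H2-Aa and H2-Ab1, at 2.25% and 3.22%, lie at the low end of the macrophage markers, whose median is 12.1%.

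The factors that occupy class II promoters moved in both directions on activation. All 8 genes of the list were in the table, and on activation 2 rose, 4 fell and 2 were not called. Of all tested genes 45.4% were called higher and 34.1% lower. The median log2 difference of the 8 was -0.31 beside 0.21 over all tested genes. Rfx5, the large RFX subunit, fell by 1.09 (adjusted p = 8.6e-05, limma), while Rfxank, another subunit, rose by 1.56 (adjusted p = 1.2e-04) and Rfxap, the third, by 0.91. Nfya, the DNA-binding subunit of NF-Y, fell by 1.95, Creb1 by 0.69 and Zxdc, a cofactor of Ciita, by 0.89. Nfyb and Nfyc differed by 0.07 and 0.12 and were not called. Between miR-15a and the control microRNA none of the 8 was called, beside 14.4% of tested genes called higher and 15.4% lower. The median difference of the 8 was -0.06 beside -0.07 over all tested genes. The same shares of all tested genes apply to the lists below. Against activated cells Rfxank (-0.81) and Nfyc (-0.45) were lower with miR-15a. The call for Rfxank was lost without activated library b (-0.71, adjusted p = 0.080) or miR-15a library b (-0.62, adjusted p = 0.071), and that for Nfyc without any 1 of the 4 libraries compared (adjusted p from 0.054 to 0.12).

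Of 8 genes of the interferon gamma route to Ciita analysed here, 6 fell on activation, with a median of -1.76, and 3 were higher with miR-15a than with the control microRNA, with a median of 0.32. Ifng was not analysed here. Jak2 fell by 1.95 and was higher by 0.98 with miR-15a than with the control microRNA (adjusted p = 2.4e-04, limma), and Jak1 fell by 2.46 with a difference of 0.29 between the microRNAs (adjusted p = 0.087). Jak1 became a call without control microRNA library b (0.43, adjusted p = 0.035). Ifngr2, a receptor chain, differed by -0.16 on activation and by 0.30 between the microRNAs (adjusted p = 0.048 and 0.011). The first of these calls was lost without any 1 of the quiescent, activated or miR-15a libraries and the second without control microRNA library b (0.26, adjusted p = 0.054). Irf1, a transcription factor that acts on a Ciita promoter, fell by 4.52 and was higher by 1.74 with miR-15a (adjusted p = 6.6e-04).

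Of 13 measured genes of endosomal processing, 10 fell and 2 rose on activation (median -1.98), and 12 were higher with miR-15a than with the control microRNA (median 0.86; 8 to 10 with 1 library left out). Ctsb, Ctsd and Ctsl encode lysosomal proteases, and Lgmn an asparaginyl endopeptidase that has been proposed to start the cleavage of the invariant chain. They fell by 4.35, 2.70, 1.98 and 3.97 on activation and were higher by 1.41, 1.16, 0.86 and 1.78 with miR-15a than with the control microRNA, and all 4 were called in both comparisons. Ctsb stood at the table's maximum of 125636 in both quiescent libraries, which bounds its fall. Ctss, the cathepsin that trims the invariant chain in most presenting cells, was picked after its values were seen. It had scores of 8204 and 7724 in quiescent cells, 151 and 132 in activated cells, 1322 and 1420 with miR-15a, and 166 and 132 with the control microRNA. Its difference between the microRNAs, 3.17 (adjusted p = 4.3e-06), was close in size to those of the I-A chains, a likeness that was not tested.

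Among 10 measured genes of costimulation and inhibition, 7 fell and 2 rose on activation (median -3.39), and with miR-15a 7 were higher and 1 lower than with the control microRNA (median 1.48). Icam1, the adhesion ligand of LFA-1, fell by 9.13 on activation and was higher by 4.20 with miR-15a (adjusted p = 1.5e-06, limma). Cd274, which encodes PD-L1, fell by 5.56 and was higher by 2.78 (adjusted p = 8.2e-06), and Lgals9, a ligand of the inhibitory receptor TIM-3, fell by 1.90 and was higher by 0.57. Cd83, which steadies class II and CD86 at the cell surface, fell by 6.89. It was higher by 1.51 with miR-15a (adjusted p = 0.039), a call lost without any 1 library of the quiescent, miR-15a or control microRNA groups (adjusted p from 0.071 to 0.16). Macrophages and endothelial cells also express genes of these last 3 lists. Most of their markers, given above, were lower on activation and higher with miR-15a than with the control microRNA. The part of these cells in these counts was not tested.

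Cd80, which shares its receptors with Cd86, was picked after its values were seen and moved the other way on activation. Its scores were 80 and 84 in quiescent cells, 242 and 208 in activated cells, 175 and 144 with miR-15a, and 156 and 169 with the control microRNA. Cd80 thus rose on activation by 1.40 (adjusted p = 3.5e-05, limma) where Cd86 fell, and between the microRNAs it differed by -0.03 (adjusted p = 0.88). Cd276, a B7 family member also picked after its values were seen, rose by 5.11 on activation and was lower by 0.81 with miR-15a than with the control microRNA (adjusted p = 0.0038).

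**Figure D4:**
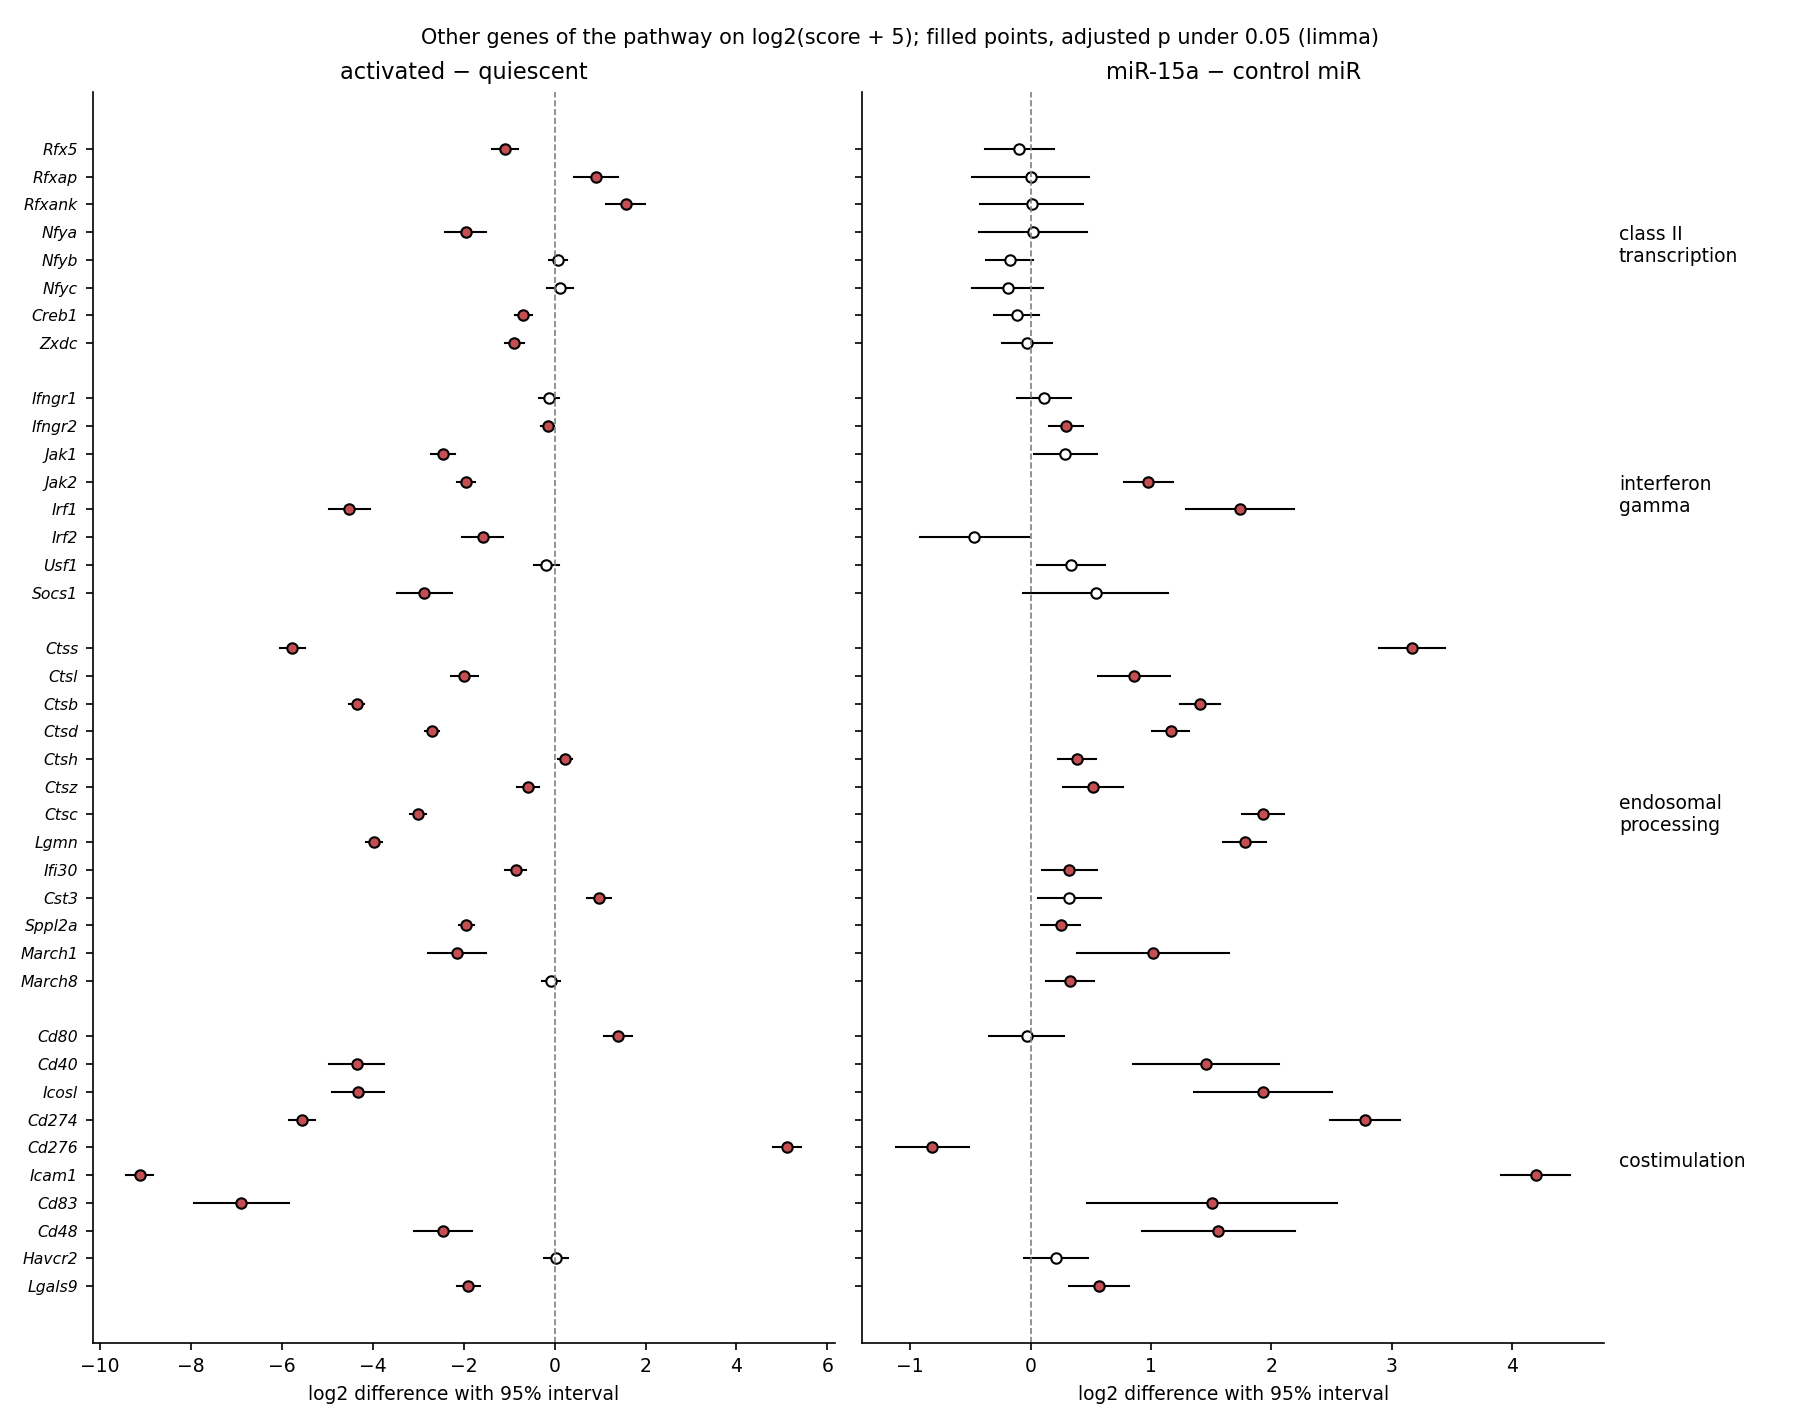
Log2 differences with 95% limma intervals for the other genes of the pathway, between activated and quiescent cells on the left and between miR-15a and the control microRNA on the right, with filled points for an adjusted p under 0.05. On the right every gene of the class II transcription list is an open point, while 12 of 13 endosomal genes are filled and above 0.

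H2-DMa, H2-DMb1, H2-Ab1 and H2-Aa lie within 168.3 kilobases of chromosome 17 (34119541 to 34287823, GENCODE M21 on GRCm38), which 11 protein-coding genes overlap, 9 of them tested. The other 5 are Brd2, which encodes a chromatin reader, the immunoproteasome subunits Psmb8 and Psmb9 and the peptide transporter subunits Tap1 and Tap2, which serve class I presentation. All 5 were called lower in activated cells, beside 34.1% of all tested genes. The log2 differences were -6.53 for Psmb8, -5.90 for Tap1, -5.21 for Psmb9, -3.85 for Tap2 and -1.97 for Brd2. With miR-15a against the control microRNA, Psmb8 was higher by 4.10, Psmb9 by 2.36 and Tap1 by 2.30. Tap2 was higher by 0.59 (adjusted p = 0.011, limma), a call lost without miR-15a library b (0.49, adjusted p = 0.067). Brd2, the gene that overlaps H2-DMa, differed by 0.05 (adjusted p = 0.61). Its scores were 5027 in both quiescent libraries and between 1244 and 1526 in the other 6.

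The genes outside the set whose centred profile was nearest to the mean of the 4 class II chain genes over the 8 libraries were Cd14 (root mean square log2 difference 0.16), Psd4 (0.17), Slc12a5 (0.20), Pld4 (0.21) and C5ar2 (0.22). The 4 profiles behind this mean were 0.83 to 2.56 apart in pairs, so nearness to the mean is not nearness to a single gene. Cd14 was the nearest gene of none of them. Cd14, the lipopolysaccharide co-receptor of macrophages, had scores of 1730 and 1634 in quiescent cells, 18 and 20 in activated cells, 114 and 92 with miR-15a, and 18 and 16 with the control microRNA. For single genes the nearest were Icam1 for H2-Aa (0.38), Slc15a3 for H2-Ab1 (0.40), 6330416G13Rik for H2-DMa (0.22), Gata4 for H2-DMb1 (0.35) and Ccl3 for Cd86 (0.34). Gata4, a transcription factor of liver endothelial and stellate cells, had 2954 and 2866, 58 and 44, 228 and 262, and 162 and 132. Like H2-DMb1, Gata4 was higher in the control microRNA libraries than in the activated ones, a likeness that its choice by nearest profile favours. Ccl3, a chemokine of myeloid cells, had 254 and 274, 10 and 14, 80 and 56, and 10 and 2.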

How the data were processed

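RNA of mouse hepatic stellate cells was sequenced from TruSeq libraries, single-end, per the labels' protocols. The submitters' processing notes name STAR, Subread, featureCounts and the build mm10. The table the authors deposited holds a score per gene: the 8 libraries share 910 distinct whole numbers, 10 genes in each are tied at 125636, and totals lie between 10193036 and 10234768. The normalization step is not given in the sources used here, the depth is unknown, and ties can make an SE too small.

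limma 3.58.1 (R 4.3.3, trended variance prior, 4 residual degrees of freedom) was fitted to log2(score + 5), and the procedure was tested on simulated data. Adjusted p-values are Benjamini-Hochberg over 13150 genes. Named were the genes of the set, all class II transcription genes, the 4 highest of each other list, the 5 genes nearest the class II mean profile and the nearest of each gene. Others, including the other genes of the chromosome 17 interval, Marco, Cx3cr1, Des, Flt1 and those said to be so in the text, were picked after their values were seen. Of 6 class II accessory genes (such as H2-DMb2) none was analysed here, and a gene of the interferon gamma list is not reported here. For hepatocytes, 8 of 10 markers were in the table. Genes and lists were chosen with earlier results of these data known. Alternatives covered the pseudocount, filter, scaling, variance prior, samples in the fit, a fold limit, a replicate block and each library left out.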

Additional observations from a re-analysis of the deposited data

How the results depend on the processing

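The number of class II genes called against quiescent cells was 5 of 5 under each alternative run, except 4 with miR-15a under a fold limit of 1 on the log2 scale, where Cd86 had adjusted p = 0.11 (limma). It was 2 in place of 4 between miR-15a and the control microRNA with only those 2 groups in the fit, 2 with the fold limit, and 2 to 4 with 1 library left out. Between the control microRNA and activated cells it was 2 in place of 1 with a filter at 50, 0 with the fold limit, and 1 to 2 with 1 library left out. Differences between a and b correlated across genes at -0.067 to 0.087 between groups, so the letters carried no strong shared shift. That does not tell whether the letters mark pairs of animals or cultures. With the replicate block the count between the control microRNA and activated cells was 2 in place of 1, since H2-DMa was called lower (adjusted p = 0.026, limma). The differences that changed sign were H2-DMb1 between the microRNAs (-0.08 without miR-15a library b, -0.10 without control microRNA library b, up to 0.35 without control microRNA library a) and Cd86 between the control microRNA and activated cells (0.12 without control microRNA library b, -1.32 without its library a), and none of these was called. Cd86 with miR-15a against activated cells was also not called with a pseudocount of 1 (adjusted p = 0.051), no filter (0.059) or an untrended variance prior (0.058). Over all gene, comparison and alternative combinations, 481 kept their call and sign, 21 lost the call, 4 gained it and 3 changed sign. Median-ratio scaling moved the median of all genes by -0.27 for activated against quiescent cells and by 0.14 for miR-15a against activated cells. For all genes tested, the calls between miR-15a and the control microRNA were 3926, 2296 with only those groups and 339 with the fold limit, and between the control microRNA and activated cells 1813, 436 and 25. The causes of these changes were not tested. Values near 0 on a scale of unknown depth limit what can be read from H2-Aa and H2-DMb1 in activated cells.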

Other observations

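The 8 hepatocyte markers in the table had summed scores of 10036 and 8269 in quiescent cells, 201 and 286 in activated cells, 894 and 1301 with miR-15a, and 91 and 940 with the control microRNA. The control microRNA libraries differed most from each other on this list, and Alb, serum albumin, had scores of 48 and 640 there. Cps1, a urea cycle enzyme, had 18 and 121, Cyp2e1, a cytochrome P450, 12 and 42, and Ttr, transthyretin, 4 and 33. For the class II genes the same pair was less far apart, with summed scores of 128 and 67, in the opposite order.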
